A study of Homo sapiens with 8 samples.

Results

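Progesterone receptor (PR) sites were examined for the nucleosome-sized DNA they held with and without hormone. The set comprised all 24436 PR sites listed after 60 min of the progestin R5020, out of 224950 regions in the 8 region lists of the series. No site was left out. Each site carried a normalized number of MNase-seq reads, in the deposited table, from T47D-MTVL cells given R5020 (10 nM) for 60 min and from unstimulated T47D-MTVL cells. T47D-MTVL is a human breast cancer line with an integrated mouse mammary tumour virus reporter. Both conditions shared the same hormone-poor preparation, in medium with charcoal-stripped serum and then without serum. The MNase libraries are not among the 8 samples of the series, and the dose is the one given for its PR samples. The H3K4me1, H3K4me3 and RNA polymerase II (RNAPII) regions, and the PR list at 0 min, came from unstimulated cells. Further PR lists came from cells given R5020 for 5, 30 and 360 min. Region lists hold no expression values, so the cell type was not checked against marker genes.

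PR is a steroid receptor that binds DNA as a dimer and recruits coactivators and chromatin remodelling complexes when a progestin occupies it. Micrococcal nuclease (MNase) digests the linker DNA between nucleosomes, so the fragments that remain mark DNA wrapped on histones. Fewer such fragments at a site mean less nuclease-protected DNA. H3K4me1 is typical of enhancers and the flanks of promoters, H3K4me3 of active promoters, and RNAPII of transcribed genes and active enhancers.

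With 1 MNase library per condition, differences between conditions lack a replicate check and carry no p-value. The sources used here give neither the depth of these libraries nor the authors' normalization, and 1 scaling factor between the libraries would move every ratio together. The results therefore set classes of sites against each other. Intervals are exact binomial 95% intervals over sites. They cover counting of sites only and not differences between cultures, and they are too narrow where neighbouring sites resemble each other. The reads came from a population of cells, in which fewer cells with a protected fragment and less protection in each cell cannot be told apart.

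MNase reads were lower at most PR sites with hormone. R5020-treated cells had a median of 75 reads per site (0 to 1745), against 97 reads in unstimulated cells (6 to 2950). Because sites were 101 to 1142 bp wide (median 313 bp), reads were also expressed per 100 bp of site. This read density had a median of 23.1 reads per 100 bp in R5020-treated cells and 30.3 in unstimulated cells. The sum over all sites was 2091378 reads with R5020 and 2790227 reads without it. Reads were lower with R5020 at 19056 sites, equal at 273 and higher at 5107. The log2 ratio of R5020 to unstimulated reads, with 1 read added to each value, had a median of -0.37 (quartiles -0.72 and -0.05).

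A ratio at least 2-fold lower with R5020 was found at 3178 sites (13.0% of all sites). A ratio at least 2-fold higher was found at 86 sites (0.352%). Of the 3178 lower sites, 2731 (85.9%) lay in a region of at least 1 of the 3 chromatin lists, against 49.6% of all sites, and 1118 (35.2%) in an RNAPII region, against 8.92% of all sites. Of the 86 higher sites, 75 (87.2%) lay in none of the lists, against 50.4% of all sites. The higher sites mostly began with few reads: 64 of them were in the lowest of 20 groups by unstimulated density, where 56 of the 64, and 78.4% of all sites of that group, lay in none of the lists.

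Sites that held more reads before hormone had a more negative ratio. To set sites side by side at equal starting density, all sites were split into 20 equal groups by unstimulated reads per 100 bp. In the group with the lowest density the medians were 12.1 reads per 100 bp with R5020 and 11.2 without, and the median log2 ratio was 0.17. In the tenth group the medians were 23.0 with R5020 and 29.3 without, with a log2 ratio of -0.35. In the group with the highest density they were 47.4 with R5020 and 74.5 without, with a log2 ratio of -0.71. The share of sites at least 2-fold lower was 7.29% in the lowest group and 29.6% in the highest. This slope depended on which library ordered the sites. When the sites were grouped by their R5020 density instead, the lowest group had 7.83 reads per 100 bp with R5020 and 16.8 without (log2 ratio -1.19). The highest group then had 55.4 with R5020 and 63.9 without (log2 ratio -0.14). Across sites the R5020 and unstimulated densities had a Spearman correlation of 0.70 (24436 sites, which share libraries and genome regions).

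Every class of sites below is therefore described by its density-matched change. This is the log2 ratio of a site minus the median log2 ratio of all sites in its own unstimulated density group. A value of 0 is the typical change of sites that started at the same density, and a negative value means fewer R5020 reads than at those sites. Shares of sites at least 2-fold lower or higher use the ratio before matching, so they also vary with starting density.

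Sites in RNAPII regions had fewer R5020 reads than other sites that started at the same density. Of the 2180 sites in RNAPII regions, the median density was 19.4 reads per 100 bp with R5020 and 38.3 without. Sites outside had 23.5 with R5020 and 29.6 without. Thus RNAPII sites had more reads than the others before hormone and fewer with it. At equal unstimulated density (42.1 at RNAPII sites and 41.5 at the others), RNAPII sites had 20.7 reads per 100 bp with R5020 and other sites 30.9, which is 67.1% as many. The density-matched difference was -0.59 on the log2 scale (-0.62 to -0.55), negative on 23 of 23 chromosomes and in 20 of 20 density groups. In the fifth group RNAPII sites had 10.1 reads per 100 bp with R5020 and other sites 17.8. In the tenth group RNAPII sites had 13.98 and other sites 23.4, and in the fifteenth RNAPII sites had 19.6 and other sites 30.4. Of RNAPII sites 86.1% lay below the median log2 ratio of their density group, against 37.8% of sites in none of the 3 lists and 49.97% of all sites. At least 2-fold lower were 51.3% of sites in RNAPII regions, against 9.26% outside.

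**Figure D1:**
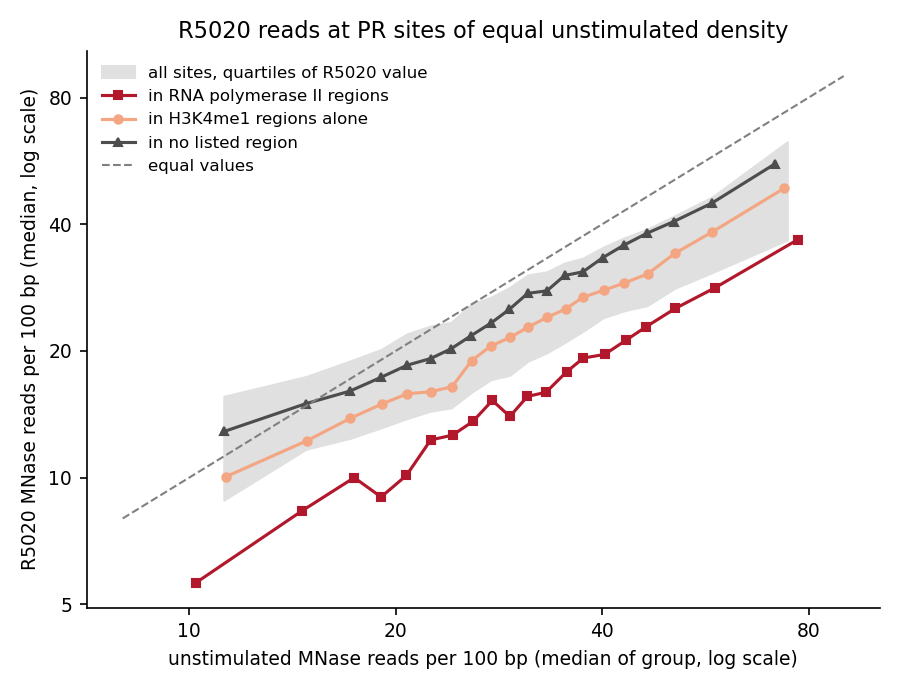
Median MNase reads per 100 bp in R5020-treated cells (y axis, log scale) against the median in unstimulated cells (x axis, log scale) for 20 groups of PR sites by unstimulated density. Sites in RNA polymerase II regions run below sites in H3K4me1 regions alone, and these below sites in no listed region, in all 20 groups. The grey band gives the quartiles of the R5020 value over all sites and the dashed line equal values.

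H3K4me3 regions held 1252 sites, with a median of 19.5 reads per 100 bp with R5020 and 37.7 without. Their density-matched difference from sites outside was -0.54 (-0.58 to -0.50), also negative on 23 of 23 chromosomes, and its interval overlapped that for RNAPII. At least 2-fold lower were 48.0% of them, against 11.1% outside. None was at least 2-fold higher (0 of 1252 sites, exact Clopper-Pearson upper limit 0.294%), against 0.371% outside, a share that came mostly from sites of low unstimulated density. H3K4me1 regions held 11789 sites, with 24.4 reads per 100 bp with R5020 and 36.1 without. The difference here was smaller, -0.26 (-0.28 to -0.24), and was negative on 23 of 23 chromosomes. At equal unstimulated density (38.7 at H3K4me1 sites and 38.3 at the others) H3K4me1 sites had 25.4 reads per 100 bp with R5020 and sites outside 31.4. At least 2-fold lower were 22.2% of H3K4me1 sites and 4.45% of sites outside.

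The 3 kinds of region overlap each other, so the sites were sorted into the 8 combinations. With H3K4me1 alone there were 9517 sites, at 25.2 reads per 100 bp with R5020 and 35.3 without. In no listed region there were 12305 sites, at 22.0 with R5020 and 25.2 without. The density-matched medians were -0.08 (-0.09 to -0.07) with H3K4me1 alone and 0.13 (0.12 to 0.13) in no region. Adding RNAPII to H3K4me1 gave 1246 sites at 20.5 reads per 100 bp with R5020 and 39.2 without, and a density-matched median of -0.50 (-0.53 to -0.46). At equal unstimulated density the H3K4me1 and RNAPII sites had 21.7 reads per 100 bp with R5020 and the H3K4me1 sites without RNAPII 29.0. This difference of -0.42 (-0.46 to -0.38) was negative on 22 of the 22 chromosomes that could be compared, those with at least 5 sites in each class.

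Adding H3K4me3 to H3K4me1 without RNAPII gave a smaller difference. The 341 sites in H3K4me1 and H3K4me3 regions had 25.5 reads per 100 bp with R5020 and 39.2 without, and differed from H3K4me1 alone by -0.12 (-0.19 to -0.05), on 16 of 18 chromosomes. The density groups did not bring these classes fully level: at 42.6 unstimulated reads per 100 bp with both marks and 40.7 with H3K4me1 alone, R5020 reads were 28.5 with both marks and 28.0 with H3K4me1 alone. The 685 sites in all 3 kinds of region had 19.3 reads per 100 bp with R5020 and 41.6 without. They differed from the sites with H3K4me1 and RNAPII by -0.16 (-0.22 to -0.09), on 17 of 19 chromosomes. Inside H3K4me1 regions the difference with RNAPII was thus larger than either difference with H3K4me3, though this contrast was not tested.

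Of all combinations, the 133 sites with H3K4me3 and RNAPII but no H3K4me1 had the fewest R5020 reads, 12.8 per 100 bp, against 27.0 without hormone. Their density-matched median was -0.64 (-0.80 to -0.55), close to -0.66 (-0.71 to -0.60) in all 3 kinds of region, and these intervals overlap. RNAPII alone (116 sites) had 15.9 reads per 100 bp with R5020 and 26.4 without, and H3K4me3 alone (93 sites) had 16.9 with R5020 and 23.9 without. Their differences from sites in no region were -0.37 (-0.50 to -0.25) for RNAPII and -0.35 (-0.49 to -0.21) for H3K4me3. For H3K4me3 alone the density groups left the classes uneven. As means over the groups, unstimulated reads per 100 bp were 41.0, against 26.3 in no region. R5020 reads were 24.4 with H3K4me3 alone and 22.9 in no region, so these means do not show the lower value. Outside H3K4me1 regions, sites with both H3K4me3 and RNAPII (-0.64) thus lay well below sites with RNAPII alone, whose density-matched median was -0.25 (-0.44 to -0.18). The share of sites at least 2-fold lower was 61.2% in all 3 kinds of region, 48.5% with H3K4me1 and RNAPII, 15.8% with H3K4me1 alone and 3.63% in no region.

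**Figure D2:**
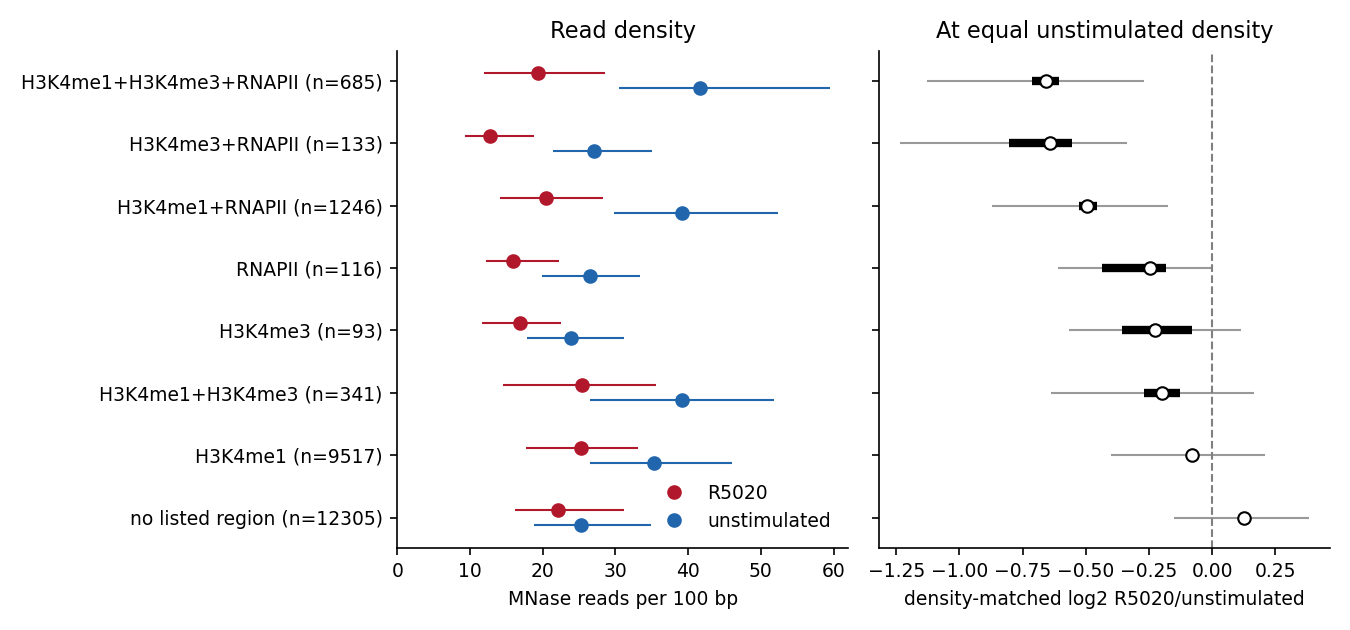
PR sites by combination of chromatin regions. The left panel gives median MNase reads per 100 bp with R5020 (red) and in unstimulated cells (blue), with lines for the quartiles over sites. The right panel gives the density-matched log2 change, with thin lines for quartiles and thick lines for the 95% interval of the median. The 4 combinations with RNA polymerase II run from -0.66 to -0.25, and sites in no listed region sit at 0.13.

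The same order appeared between neighbours, where 1 site of an adjacent pair lay inside a kind of region and the other outside it. This comparison was added after the values were seen, and a site can belong to more than 1 pair. Pairs were at most 10 kb apart. Among 1033 pairs split by an RNAPII region, the inside site had the lower log2 ratio in 817 (79.1%, 76.5 to 81.5%), with a median difference of -0.49. Pairs split by an H3K4me3 region had it in 431 of 573 (75.2%, median -0.46), and pairs split by an H3K4me1 region in 971 of 1420 (68.4%, median -0.29). Part of each difference was a higher starting density at the inside site. Its unstimulated density differed by a median log2 of 0.28 for RNAPII, 0.15 for H3K4me3 and 0.10 for H3K4me1. Its R5020 density differed by -0.17, -0.26 and -0.17 in the same order. For RNAPII the direction also held in 419 of 561 pairs (74.7%) where both sites lay in H3K4me1 and neither in H3K4me3 regions. In these pairs the inside site differed by 0.28 (log2) in unstimulated density and by -0.08 in R5020 density. Where the unstimulated densities of a pair were within 1.25-fold of each other, the counts were 262 of 347 pairs for RNAPII (75.5%, median -0.37), and 137 of 196 (69.9%, median -0.24) with both sites in H3K4me1 and neither in H3K4me3 regions. For H3K4me3 they were 143 of 206 (69.4%, median -0.34), and for H3K4me1 370 of 539 (68.6%, median -0.24).

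Inside H3K4me1 regions the change was graded with depth. The 9517 sites in H3K4me1 regions alone were split into 4 equal groups by the distance of their centre from the region edge. At a median of 306 bp inside the edge, sites had 26.5 reads per 100 bp with R5020 and 31.6 without, and a density-matched median of 0.09 (0.07 to 0.12). At 780 bp the density-matched median was -0.07 and at 1440 bp -0.13. At 3461 bp sites had 24.5 reads per 100 bp with R5020 and 38.7 without, and a density-matched median of -0.20 (-0.22 to -0.17). Sites near the edge were thus closer to sites outside all regions than to those deep inside. The share at least 2-fold lower was 6.56% nearest the edge and 24.9% deepest. Wider H3K4me1 regions gave the same order, with density-matched medians of 0.02, -0.05, -0.10 and -0.16 for regions with median widths of 1634, 2914.5, 5104 and 12635 bp. Depth and region width were not separated from each other.

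Outside the regions there was no such gradient toward H3K4me1. Among sites in no listed region, those within 1 kb of an H3K4me1 region had a density-matched median of 0.18 (0.16 to 0.22). Those over 50 kb away had 0.07 (0.06 to 0.08). Before matching this order was not seen: the log2 ratios were -0.18 within 1 kb and -0.16 over 50 kb away. Their unstimulated densities were 28.5 and 21.1 reads per 100 bp, so the order of the matched values rests on the matching. Toward RNAPII regions the density-matched order was the other way. The 171 sites in no listed region within 1 kb of an RNAPII region had a median of 0.00 (-0.06 to 0.13). Those over 50 kb away had 0.14 (0.13 to 0.15). Before matching the log2 ratios were -0.26 within 1 kb and -0.18 over 50 kb away. Of sites with H3K4me1 alone, those within 1 kb of an RNAPII region were at -0.12 (-0.16 to -0.08) and those over 50 kb away at -0.05 (-0.07 to -0.03). Sites inside both H3K4me1 and RNAPII regions, at -0.50, lay further from either value than these lay from each other.

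Chromosomes differed both in how many reads their PR sites held and in how these differed with hormone. Median density ran from 13.0 reads per 100 bp with R5020 and 16.4 without on chromosome X to 32.1 with R5020 and 38.5 without on chromosome 3. Chromosome 17 had the highest unstimulated density, 39.6, against 26.7 with R5020. Across the 23 chromosomes the R5020 and unstimulated medians had a Spearman correlation of 0.93. The median log2 ratio of a chromosome showed almost no relation to its unstimulated median (rho 0.06). The density-matched change was higher on denser chromosomes (rho 0.67). Matching subtracts a group median that falls from 0.17 in the lowest density group to -0.71 in the highest. Taken from ratios that do not fall with density, it gives a rising relation by arithmetic. The rho of 0.67 is therefore not by itself a trait of the chromosomes. The number of copies of each chromosome in these cells was not measured, and its part in the densities was not tested.

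Sites on chromosomes 19 and 22 had the lowest ratios. The 384 sites on chromosome 19 had 13.5 reads per 100 bp with R5020 and 22.4 without, a median log2 ratio of -0.78, and 38.8% of them were at least 2-fold lower. The 371 sites on chromosome 22 had 14.2 with R5020 and 22.6 without, a log2 ratio of -0.69, and 30.5% at least 2-fold lower. Chromosomes 17 and 16 followed, both at -0.56. At the other end, chromosomes 13 and 4 were at -0.25, and chromosome 3 had the smallest share at least 2-fold lower, 7.10%. After density matching, chromosomes 19 (-0.48) and 22 (-0.41) were still lowest, followed by X (-0.24), whose log2 ratio before matching was -0.36. Chromosomes 3 (0.21) and 12 (0.19), both among the densest, were highest. These places depended on the grouping: without groups chromosome 13 was highest and 19 lowest, and grouped by R5020 density X was highest and 17 lowest.

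Chromatin makeup moved with these values. RNAPII regions held 21.1% of sites on chromosome 19, 19.4% on chromosome 17, 17.4% on chromosome 16 and 13.2% on chromosome 22, but 3.38% on chromosome 13. Across the 23 chromosomes the log2 ratio had a Spearman correlation of -0.75 with the share of sites in RNAPII regions and -0.54 with the share in H3K4me1 regions. Chromosomes 19 and 22 had the lowest 2 medians within each kind of chromatin, while the order of the others changed. With H3K4me1 alone, chromosome 4 (-0.64) and chromosome 13 (-0.57) were no higher than chromosomes 16 (-0.57) and 17 (-0.56), and only 19 and 22 lay below chromosome 2 (-0.74). RNAPII sites on chromosome 19 had 9.61 reads per 100 bp with R5020 and 26.5 without (log2 ratio -1.40, 77.8% at least 2-fold lower). RNAPII sites on chromosome 3 had 30.4 with R5020 and 55.9 without (log2 ratio -0.88, 39.4% at least 2-fold lower). Sites in no listed region had log2 ratios from -0.40 on chromosome 19 and -0.39 on chromosome 22 to -0.09 on chromosome 12. With the combination of regions held equal, the range of density-matched chromosome medians was 0.53, against 0.69 without this. Chromosomes 19 and 22 hold few sites, and among chromosomes with at least 500 sites the range was 0.37.

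**Figure D3:**
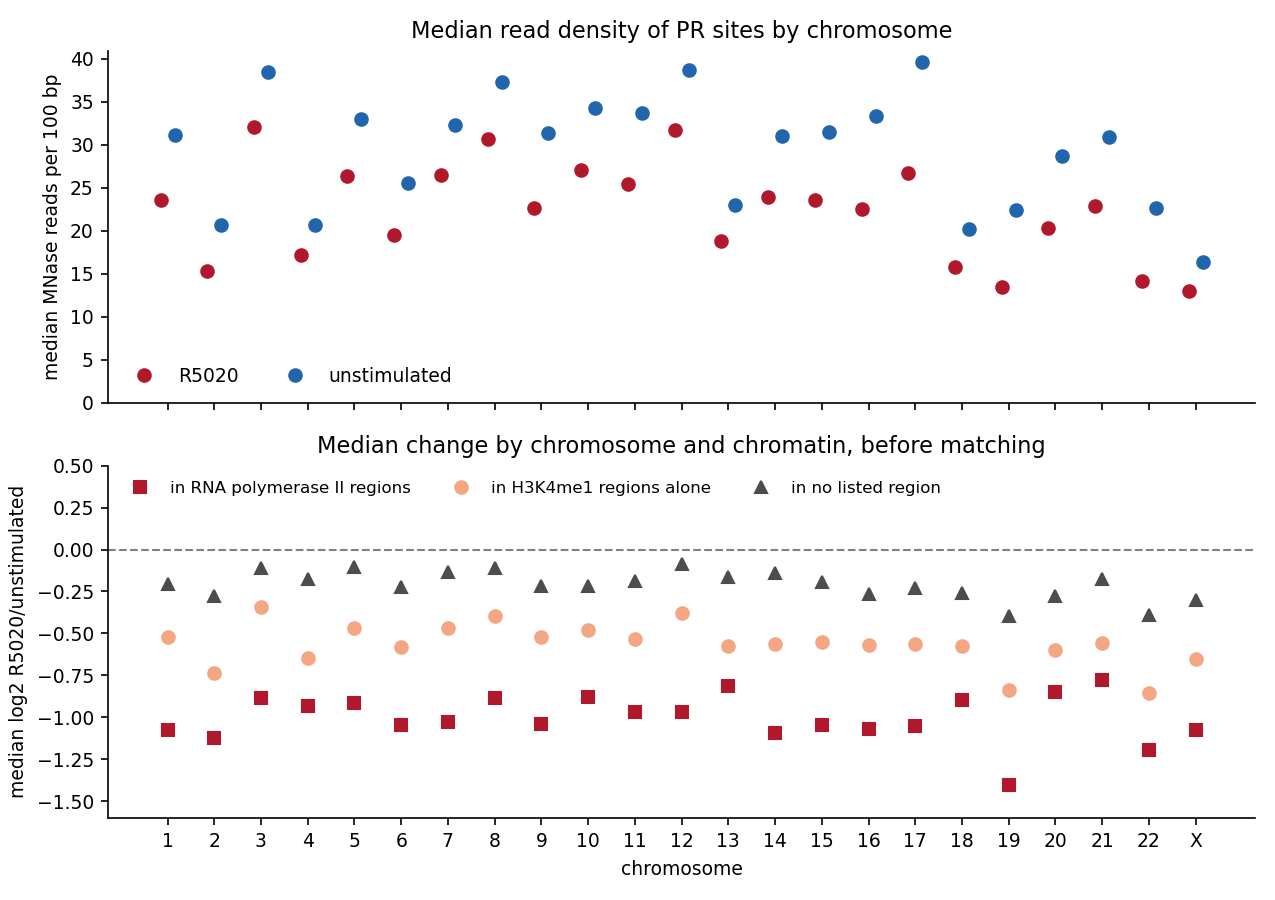
The upper panel gives the median MNase reads per 100 bp of PR sites on each chromosome with R5020 (red) and in unstimulated cells (blue). The lower panel gives the median log2 ratio, before density matching, of sites by chromatin: in RNA polymerase II regions, with H3K4me1 alone and in no listed region. The 3 classes keep their order on every chromosome, and chromosome 19 has the lowest RNA polymerase II value (-1.40).

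Clustered PR sites had slightly fewer R5020 reads for their starting density than isolated ones. The 11591 sites with another PR site within 10 kb had 23.1 reads per 100 bp with R5020 and 31.6 without, a log2 ratio of -0.44. The 2866 sites with none within 100 kb had 21.2 with R5020 and 25.7 without, a log2 ratio of -0.24. At equal unstimulated density (34.5 at clustered and 34.3 at isolated sites) clustered sites had 24.6 reads per 100 bp with R5020 and isolated sites 27.0. The density-matched difference was -0.13 (-0.16 to -0.11), negative on 22 of 23 chromosomes, and 16.0% of clustered and 8.30% of isolated sites were at least 2-fold lower. Chromatin moved with clustering: 61.8% of clustered and 20.6% of isolated sites lay in H3K4me1 regions, and 12.1% of clustered and 4.68% of isolated sites in RNAPII regions. Within sites in no listed region the difference was -0.05 (-0.08 to -0.03), negative on 18 of 23 chromosomes. Within H3K4me1 alone it was 0.02 (-0.04 to 0.08), negative on 11 of 21 chromosomes. With the combination of regions held equal over all sites it was -0.03. Most of the clustering difference was thus no longer seen once sites of the same chromatin were compared.

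Longer chains of PR sites had lower density-matched medians, in part also among sites of the same chromatin. Sites joined by gaps of up to 10 kb formed 17114 chains, of which 4269 held at least 2 sites and the longest 18. The density-matched median was 0.05 for single sites, -0.02 in chains of 2, -0.06 in chains of 3 to 4, -0.13 in chains of 5 to 9 and -0.23 in chains of 10 or more. The share of sites in RNAPII regions was 6.05% for single sites and 19.1% in chains of 10 or more. Sites in no listed region had medians of 0.14 as single sites, 0.10 in chains of 2, 0.08 in chains of 3 to 4 and 0.06 in chains of 5 to 9. In the chains of 10 or more, which were 33 chains, only 38 such sites were found, with a median of 0.07. For H3K4me1 alone the median was -0.08 for single sites and between -0.09 and -0.07 in chains of 2 to 9, but -0.20 at the 267 sites in chains of 10 or more. These 267 sites came from at most 33 chains. The width of their H3K4me1 regions and their depth inside them were not held equal.

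The chains with the most sites varied among themselves. As background for the counts below, 19056 of all 24436 sites had fewer reads with R5020. On hg19, the chain at chr15:99383283-99424346 held 18 sites, 17 of them in H3K4me1 regions. Its densities were 12.4 to 39.2 reads per 100 bp with R5020 (median 23.6) and 16.3 to 42.3 without (median 32.2). The log2 ratio was negative at 15 of the 18 sites (median -0.40). The chain at chr10:79615062-79655453 also held 18 sites, all in H3K4me1 regions, with 13.7 to 37.2 reads per 100 bp with R5020 (median 21.4) and 19.6 to 71.3 without (median 41.2). Here all 18 sites had fewer reads with R5020, and the median log2 ratio was -0.81. A second chain on the same chromosome, chr10:79150297-79194194, held 16 sites and had fewer reads with R5020 at all 16 (median log2 ratio -0.75). No RNAPII region overlapped any of these 16. The chains at chr7:34059604-34105067 (16 sites, median -0.29) and chr16:84744750-84788210 (15 sites, median -0.35) had fewer reads with R5020 at 12 sites each. Log2 ratios in the chromosome 16 chain ran from -1.49 to 1.24, so sites within 43460 bp of each other differed in direction. Mixed direction is not particular to this chain, since 5107 of all 24436 sites had more reads with R5020. The site at 1.24 began at 10.9 reads per 100 bp, in the lowest density group, whose median ratio was itself positive.

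Site width had a small relation to the change. The widest 25% of sites had 22.4 reads per 100 bp with R5020 and 29.3 without, and the narrowest 25% had 24.4 with R5020 and 31.3 without. At equal unstimulated density (32.0 in both) the widest had 23.6 reads per 100 bp with R5020 and the narrowest 24.9. The density-matched difference was -0.08 (-0.10 to -0.06), negative on 19 of 23 chromosomes. In 10 groups by width the median was 0.08 in the narrowest and -0.05 in the widest, and it stayed between -0.03 and 0.04 in the groups between them. Within sites in no listed region the difference was -0.09 (-0.12 to -0.06), on 23 of 23 chromosomes, and within H3K4me1 alone -0.04 (-0.07 to -0.01), on 14 of 23. These 2 differences used density groups formed over all sites. Before matching they were -0.048 in no listed region and -0.0097 within H3K4me1 alone. With the combination of regions held equal over all sites, by medians within each combination and density group, the difference was -0.028. With sites grouped by R5020 density it was -0.017, smaller than its interval half-width of 0.020, and negative in 14 of 20 groups. The direction depended on the measure of starting level: with sites grouped by unstimulated reads per site and not per 100 bp, the difference was 0.16.

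**Figure D4:**
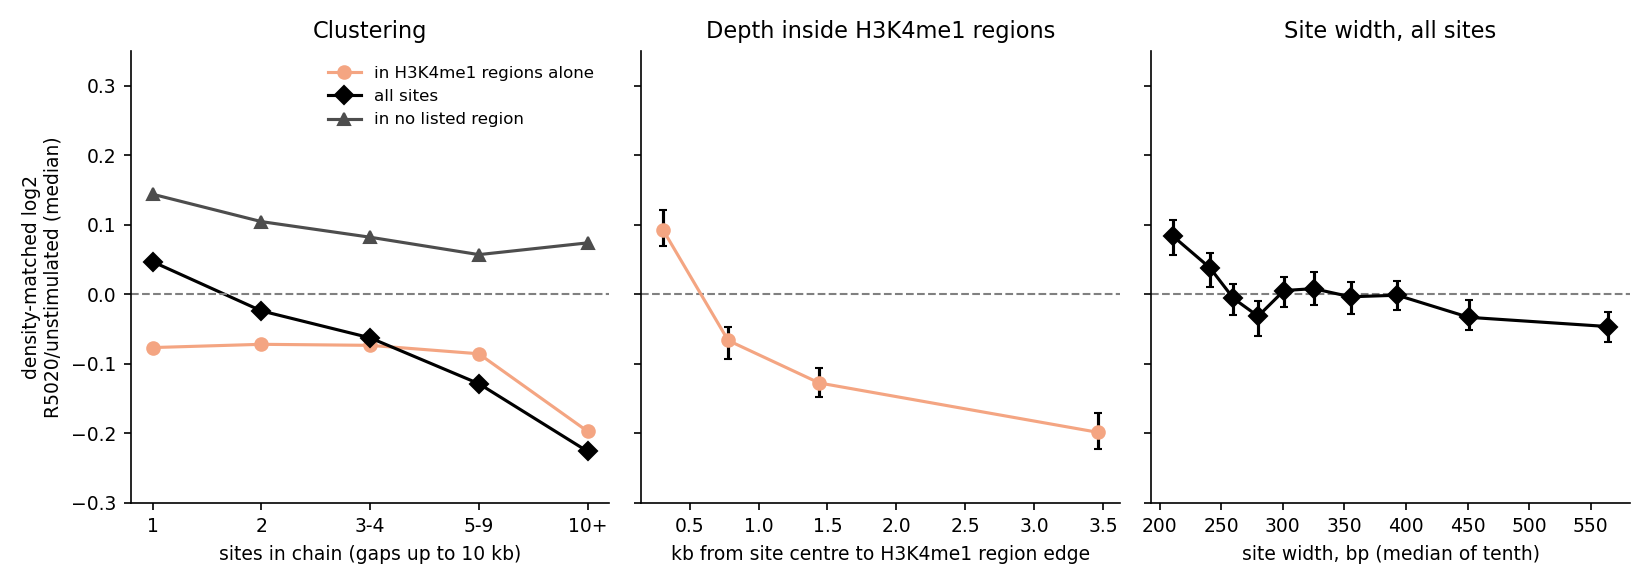
Median density-matched log2 change of PR sites by number of sites in a chain (left), by distance of the site centre from the edge of its H3K4me1 region for sites in H3K4me1 regions alone (middle) and by site width (right). Bars in the middle and right panels are 95% intervals of the median. The value runs from 0.09 to -0.20 with depth inside H3K4me1 regions and from 0.08 to -0.05 over site width.

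Sites in all the other hormone lists had fewer R5020 reads for their starting density. The 10232 sites also listed at 5, 30 and 360 min of R5020 had 22.1 reads per 100 bp with R5020 and 31.2 without. The 2669 sites listed at none of those times had 24.3 with R5020 and 30.5 without. The density-matched medians were 0.07, 0.08, 0.05 and -0.10 at sites in 0, 1, 2 and 3 of those lists, so the lower value was found at sites listed at all 3 times. The difference between 3 lists and 0 was -0.17 (-0.19 to -0.14), negative on 23 of 23 chromosomes. It was -0.11 (-0.14 to -0.08) within sites in no listed region and -0.08 (-0.12 to -0.04) within H3K4me1 alone. Within H3K4me1 and RNAPII, where only 73 sites were in no other list, it was -0.05 (-0.27 to 0.17). The 89 sites that the 0 min PR list also held had 29.8 reads per 100 bp with R5020 and 53.4 without, and 48.3% were at least 2-fold lower. Their unstimulated density is so high that the density groups did not bring them level with other sites.

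Adjacent sites resembled each other. The density-matched changes of 2284 adjacent pairs less than 1 kb apart had a Spearman correlation of 0.49. It was 0.36 for 3038 pairs 1 to 5 kb apart and 0.29 for 2000 pairs 5 to 10 kb apart. At 10 to 30, 30 to 100 and 100 to 300 kb it was 0.33, 0.28 and 0.27, and for 2334 pairs over 300 kb apart 0.29. Similarity in the change was thus highest within 1 kb, and it stayed between 0.27 and 0.33 beyond 5 kb. For pairs of the same combination it was 0.51 within 1 kb, 0.41 at 10 to 30 kb and 0.32 over 300 kb. Unstimulated densities of the same pairs had correlations of 0.59 within 1 kb and 0.48 over 300 kb. These pairs share libraries, chromosomes and often the chromatin class.

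Single sites show the range behind these medians. The sites named here were the widest of each chromatin combination, and the 3 lowest and 3 highest log2 ratios among the 20865 sites with at least 100 reads over both conditions. The 6 sites with extreme ratios were chosen by their values and are a description. The lowest ratio was at chr2:192542793-192543046 (hg19), with 17 reads with R5020 and 172 without, in H3K4me3 and RNAPII regions. It was followed by chr3:170074939-170075241, with 10 reads with R5020 and 98 without, and chr15:45003491-45003967, with 70 reads with R5020 and 628 without. The chromosome 3 and chromosome 15 sites lay in all 3 kinds of region. All 3 lacked another PR site within 10 kb, as did 52.6% of all sites.

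The highest ratio was at chr1:215779985-215780440, with 181 reads with R5020 and 56 without, in no listed region. Next was chr3:118651152-118651397, also in no region, with 79 reads with R5020 and 30 without. The third was chr16:84763918-84764576, in an H3K4me1 region and in the chromosome 16 chain described above, with 172 reads with R5020 and 72 without. The unstimulated densities of these 3 sites were 12.3, 12.2 and 10.9 reads per 100 bp, all in the lowest of the 20 groups, which by itself had a positive median ratio.

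The widest sites were less extreme. In no listed region the widest was chr6:49635817-49636929 (1112 bp), with 194 reads with R5020 and 210 without. With H3K4me1 alone it was chrX:54773841-54774983 (1142 bp), with 196 reads with R5020 and 319 without. With H3K4me1 and RNAPII it was a site of 1049 bp on chromosome 8, with 494 reads with R5020 and 532 without, a density-matched change of 0.44 against -0.50 at the median of its class. In all 3 kinds of region it was chr15:93412193-93413155 (962 bp), with 176 reads with R5020 and 363 without. RNAPII alone gave chr12:10516866-10517698 (832 bp), with 94 reads with R5020 and 185 without. H3K4me3 alone gave chr3:66548690-66549562 (872 bp), with 149 reads with R5020 and 148 without. The widest site with H3K4me1 and H3K4me3, chr11:34689287-34690203 (916 bp), had 378 reads with R5020 and 542 without. The widest with H3K4me3 and RNAPII, chr2:100104863-100105667 (804 bp), had 106 with R5020 and 197 without. A gene annotation of this build was not used here, so the sites are given by position.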

How the data were processed

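The authors deposited a table with 1 normalized number of MNase reads per PR site for R5020-treated and for unstimulated cells, whole numbers treated here as a score rather than counts. Per the series' design text the DNA was mononucleosomal and the hormone was given for 60 min. None of the 8 samples is an MNase library. The other deposited values are coordinates of PR and chromatin regions on hg19 (per the file headers), 1 list per sample. For aligner, caller, thresholds and normalization nothing is given in the sources used here. No columns of other samples were used, and the authors' ratio column was left out.

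From these, reads per 100 bp, log2 ratios with 1 read added, and overlaps of at least 1 bp were computed with Python 3.11.15, NumPy 2.4.6, pandas 2.3.3 and SciPy 1.17.1, and plotted with Matplotlib 3.10.9. The authors' own marks gave the same class as these overlaps at 24418 sites for H3K4me1 and 24426 for H3K4me3. Density matching used 20 groups. The interval of a difference combines the exact intervals of both medians in quadrature. Densities at equal unstimulated density are means over the 20 groups, weighted for both classes by the sites of the class named first. The matching step was run on simulated data with a planted RNAPII difference. Those data had no built-in slope with density and no variation beyond counting. How the choice of grouping library moves the values was therefore not tested on them.

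With 1 library per condition no test was made. Alternatives covered the number added, low-read filters, the measure of density, the overlap rule and chromatin held equal. Members, classes and lists were chosen with earlier results of these data known. Sites were named by the rules stated with them, and chains by the number of sites.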

Additional observations from a re-analysis of the deposited data

How the results depend on the processing

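Of 120 alternatives, 78 kept the value near the main one, 41 moved it and 1 turned it round, and the cause was not tested. For medians, differences and the chromosome range, near means within the interval half-width of the main value. Counts of sites have no such interval, and for them it means within a fixed ratio of the main count. The direction of the H3K4me1, H3K4me3, RNAPII and clustering differences was negative under every alternative run. With 5 reads added, the median log2 ratio was -0.35 and 47 sites were at least 2-fold higher. Without density groups the differences were -0.38 (H3K4me1), -0.62 (H3K4me3), -0.69 (RNAPII), -0.052 (width) and -0.20 (clustering), and the chromosome range was 0.53. Grouped by R5020 density they were -0.39 (H3K4me1), -0.49 (H3K4me3), -0.017 (width) and -0.20 (clustering), with a range of 0.53, now with chromosome X highest and 17 lowest. Grouped by the mean log2 density they were, in the same order of 5, -0.38, -0.61, -0.68, -0.048 and -0.20, with a range of 0.51. Grouped by the regional unstimulated density they were -0.37, -0.61, -0.69, -0.044 and -0.19, with a range of 0.52. Grouped by unstimulated reads per site, the width difference was 0.16.

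RNAPII was -0.65 by site midpoint, -0.65 with 50% of the site inside and -0.66 with the wider 50% of regions, where H3K4me1 was -0.28. H3K4me1 was -0.23 with clustering held equal and -0.20 outside the other regions. H3K4me3 outside RNAPII was -0.25, and RNAPII within H3K4me1 and outside H3K4me3 was -0.42. With the chromatin combination held equal, width was -0.028, clustering -0.026 and the range 0.53. The extreme width groups of 10 gave -0.13, gaps within 5 against over 200 kb gave -0.16, and chromosomes of at least 500 sites gave 0.37. Grouping by density over the chromosome's own median, added after the values were seen, gave -0.17 for clustering and a range of 0.51. No paired analysis was possible because each condition has 1 library. Unknown depth limits every count of single sites.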
